A study of Drosophila melanogaster with 2 samples.

Results

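The genes described here encode proteases, an amylase, maltases, lysozymes, mannosidases and lipases, most of them families of digestive enzymes of the fly gut. *cathD* and the *LMan* genes, which the choice by name also took in, belong to families of lysosomal enzymes. They were chosen by name, as the probe sets whose single current gene symbol belongs to the Jonah (*Jon*), trypsin (*Try*), *Amy*, *Mal*, *Lys*, *LMan* or *Lip* families, or is *mag*, *Ser6*, *Ser8*, *Ser12* or *cathD*. This gave 54 probe sets for 54 genes, out of 14010 probe sets on the array, of which 12444 carried a single symbol and named 10845 genes. There were 14 Jonah proteases, 9 trypsins, 4 other proteases, 1 amylase, 10 maltases, 7 lysozymes, 4 mannosidases and 5 lipases. Total RNA came from whole embryos of *yw*, the control stock, named for the body and eye colour mutations *yellow* and *white*, and from embryos homozygous for a mutation in *mid*, which encodes a T-box transcription factor. Embryos of both genotypes were raised at 25 °C and taken 16 h after laying, and the CyOact-GFP balancer served to recognise the mutants. Each genotype had 1 Affymetrix DrosGenome1 array. The labels name no *mid* allele (the stock list of the study gives 1, *mid*1 over CyO), and the number of embryos in each RNA pool is not stated. The labels give *yw* as the control whereas the Methods name heterozygous *mid* embryos, so stock background and *mid* genotype cannot be told apart here.

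In the embryo, digestive enzyme genes are transcribed late, when the endodermal cells of the midgut differentiate into the secretory and absorptive cells that the larva uses for feeding. Jonah proteins and trypsins are secreted serine proteases of the gut lumen. Amylase cuts starch, maltases release glucose from the resulting sugars, and the midgut lysozymes of *Drosophila* digest bacteria taken up with food. Many of these genes lie in tandem clusters of close relatives, so that some probe sets can bind transcripts of more than 1 gene.

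The values were MAS5 signals, which are linear intensities. Their medians were 150 (*yw*) and 43.3 (*mid*), so both arrays were brought to a common median before any comparison. Signals are given on the *yw* scale, and those below 97.6, the 40th percentile of both arrays, were set to that floor before a log2 difference (*mid* minus *yw*) was taken. There is no replicate check on any value, as each genotype has 1 array. A gene is therefore called lower or higher from its size only, where the difference exceeds 2-fold, and no test was made. As a scale for disagreement between probe sets, the log2 differences of probe sets for 1 gene had an SD of 0.53 over the 287 genes with several. *mid* itself was under the floor on both arrays, with 49.3 in *yw* and 56.8 in *mid*, and gives no check of the labels. As a measure of RNA quality, the signal of 3′ over 5′ probe sets was 28.8 in *yw* and 53.5 in *mid* for actin. It was 50.8 and 63.3 for eIF-4a, 21.6 and 17.3 for GAPDH, and 4.52 and 7.43 for 18S rRNA. The 3′ signal was thus 17.3 to 63.3 times the 5′ signal for actin, eIF-4a and GAPDH, and 4.52 to 7.43 times for 18S rRNA. The *mid* array had the higher ratio for 3 of the 4 control transcripts. The part of RNA quality in the results was not tested.

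The digestive enzymes did not differ in 1 direction. In *mid* embryos *Amy-d*, *Jon74E*, *cathD*, *Lip1* and *Jon25Bi* were lower, by 2.22 to 9.71-fold, while *Lip3*, *Mal-B1*, *mag*, *LManII*, *Ser6* and *Mal-A5* were higher, by 2.1 to 7-fold, although *Ser6* and *Mal-A5* were within 2-fold under the other scalings. Of the 54 probe sets, 47 were above the floor on at least 1 array, 43 of them on both. Of the 47, 5 were called lower, where 4.39% of the 8252 single-symbol probe sets above the floor on at least 1 array were called lower, and 6 were called higher, where the background was 5.78%. The calls came to 10.6% and 12.8% of the measured members, and with 1 array a genotype each rests on a single pair of libraries. How far these shares stood above the background depended on the floor. Without a floor 7 of 54 members were lower and 9 higher, beside 13.6% and 12.2% of all single-symbol probe sets. The median log2 difference of the 47 was 0.05, beside 0.06 for all single-symbol probe sets above the floor, with 23 below 0 and 24 above. Their spread was wider, with an SD of 1.14 across the members and 0.65 across the other probe sets. Of the 43 members above the floor on both arrays, 23 differed by no more than the SD between probe sets of a gene. In bulk RNA, fewer gut cells and less RNA per gut cell cannot be told apart.

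**Figure D1:**
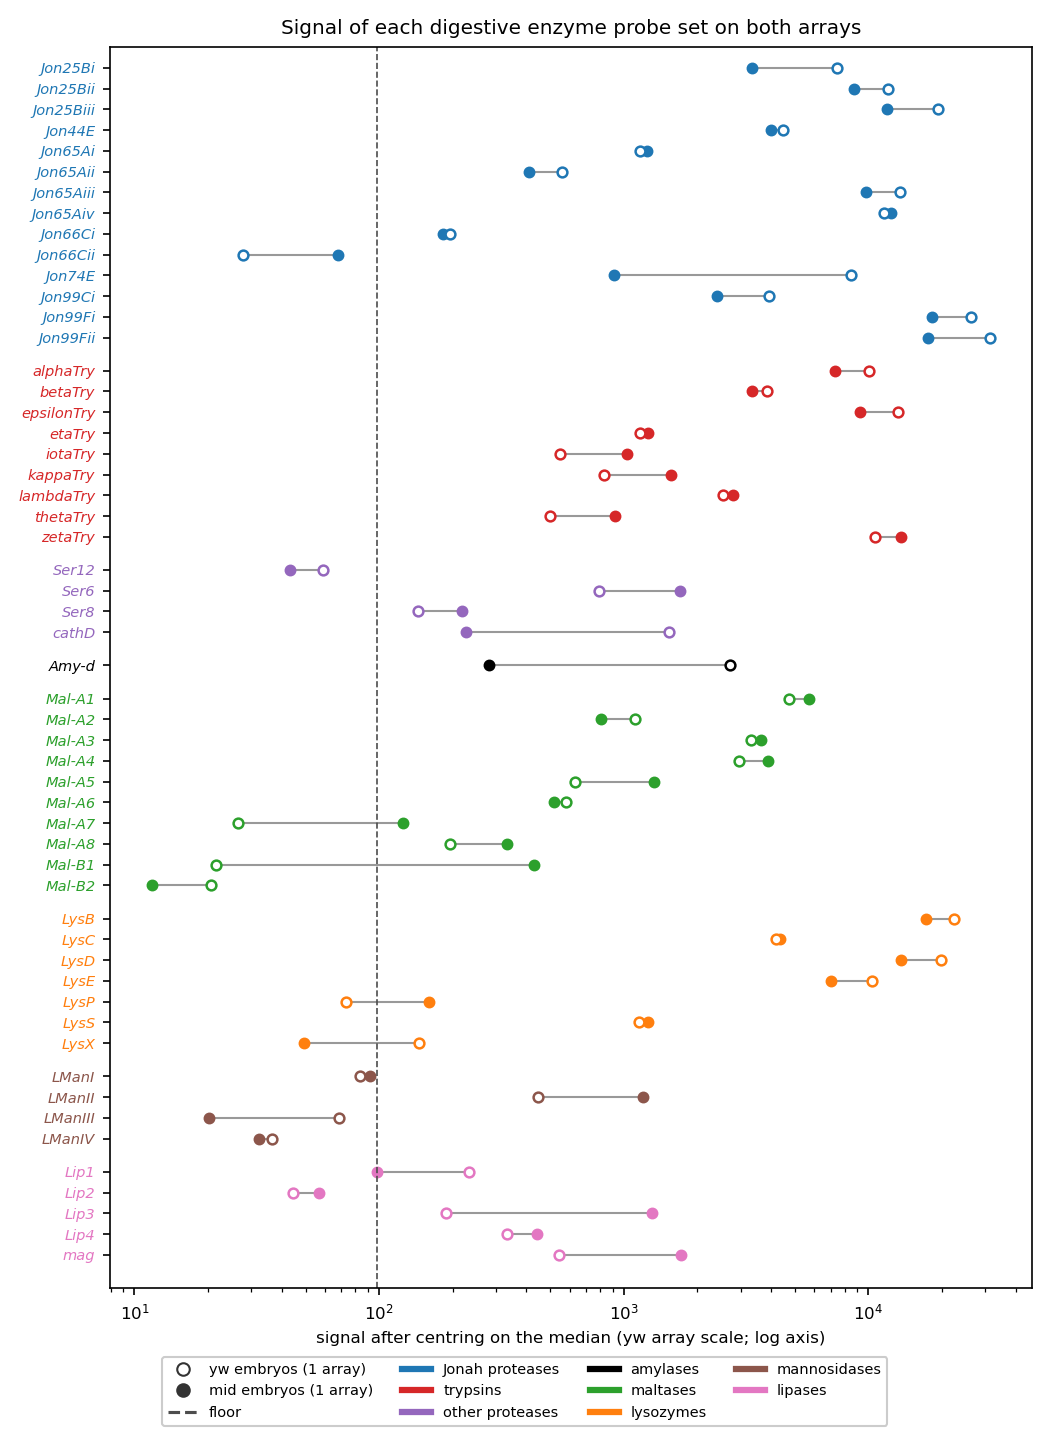
Signal of all 54 digestive enzyme probe sets on the *yw* array (open circles) and the *mid* array (filled circles) after median centring, on a log axis, with colours for enzyme classes and a dashed line at the floor of 97.6. Each circle is 1 array. The longest lines above the floor belong to *Jon74E*, *cathD* and *Amy-d*, which were lower in *mid*, and *Lip3*, which was higher.

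Most Jonah proteases were lower in *mid*, 11 of the 13 genes above the floor, where 44.9% of all measured single-symbol probe sets lay below 0. The median log2 difference was -0.47, and it stayed between -0.71 and -0.47 under every scaling and floor tried, after the shift of all genes was removed. *Jon74E* stood far outside the rest of the family. It read 8449 in *yw* and 908 in *mid*, which is 9.31-fold lower, and its place among all signals of the array went from percentile 97.8 to 84.3. *Jon25Bi* read 7457 in *yw* and 3356 in *mid* (2.22-fold lower), only just past the 2-fold limit.

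The other Jonah genes differed by less than 2-fold, mostly in the same direction. *Jon99Fii* had a log2 difference of -0.84, with 31401 in *yw* and 17495 in *mid*, and its neighbour *Jon99Fi* read 26226 and 18250 (-0.52). *Jon99Ci* read 3913 and 2412 (-0.70). All 3 *Jon99* members were thus lower in *mid*, by about the SD between probe sets or more. *Jon25Biii* read 19289 in *yw* and 11915 in *mid* (-0.70), and *Jon25Bii* read 12008 and 8719 (-0.46). *Jon65Aiii* read 13471 and 9723 (-0.47) and *Jon65Aii* read 557 and 411 (-0.44). *Jon44E* read 4481 and 3986 (-0.17) and *Jon66Ci* 195 and 183 (-0.09). The last pair lay well within the SD, and *Jon99Fi*, *Jon25Bii*, *Jon65Aiii* and *Jon65Aii* also lay within it. *Jon65Aiv*, with 11567 in *yw* and 12398 in *mid* (0.10), and *Jon65Ai*, with 1165 and 1241 (0.09), lay slightly above 0 after centring. With the shift of all genes left in, both lay below 0 under each of the other scalings, at -0.24 (*Jon65Ai*) and -0.23 (*Jon65Aiv*) with the spiked controls and at -1.70 and -1.69 as deposited, where both were called lower. *Jon66Cii* was under the floor on both arrays. Without *Jon74E* and *Jon25Bi*, which were set aside after their values were seen, the log2 differences of the family ran from -0.84 to 0.10.

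Close relatives limit what these probe sets can separate. The probe set of *Jon99Fii* carries the array maker's mark for probes shared within a gene family. Another 3 probe sets name both *Jon99Cii* and *Jon99Ciii* and were therefore not members. They read 38550 in *yw* and 22809 in *mid*, 47774 and 24640, and 21062 and 21545. The first and second were lower in *mid* and the third was nearly level, with log2 differences of -0.76, -0.96 and 0.03 for probe sets of the same gene pair.

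The trypsins, which cut proteins after lysine or arginine, showed no call in either direction. At a background of 4.39% lower and 5.78% higher, the absence of calls among 9 genes says little. All 9 were above the floor on both arrays, with log2 differences from -0.51 to 0.91. Their median was 0.15, but -0.10 with values as deposited after the shift of all genes was removed. *epsilonTry* (13181 in *yw* and 9264 in *mid*), *alphaTry* (10046 and 7280) and *betaTry* (3839 and 3349) lay below 0. *iotaTry* (548 and 1030), *kappaTry* (833 and 1552) and *thetaTry* (499 and 918) lay just under 2-fold above, at 1.88, 1.86 and 1.84-fold. These 3 dimmer trypsins thus went the opposite way to the bright neighbours *alphaTry* and *epsilonTry*, and *iotaTry* differed from *epsilonTry* by 1.42 on the log2 scale, a value that no single scaling factor can change. *zetaTry* read 10656 in *yw* and 13640 in *mid* (log2 difference 0.36), *lambdaTry* read 2532 and 2805 (0.15) and *etaTry* 1160 and 1253 (0.11). All 3 lay within the SD between probe sets. *gammaTry* and *deltaTry*, close relatives in the same cluster, were not analysed here.

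Among the other proteases, *cathD* and *Ser6* moved apart. *cathD*, which encodes cathepsin D, an aspartic protease of lysosomes, read 1524 in *yw* and 227 in *mid*, 6.7-fold lower, and went from percentile 90.4 of the array to 59.5. *Ser6*, a serine protease gene, read 788 and 1702, 2.16-fold higher, at percentile 83.3 in *yw* and 90.5 in *mid*. *Ser8*, also a serine protease gene, read 145 and 218 (1.51-fold), and *Ser12* was under the floor on both arrays. The cysteine cathepsins offer a comparison for *cathD* within the lysosome. Of 5 measured cathepsin genes of a fixed list, none was called, and their log2 differences ran from -0.41 to 0.03, with 5473 in *yw* and 4972 in *mid* for *CtsB* and 2344 and 2167 for *CtsL1*.

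*Amy-d*, which encodes an alpha-amylase, was the member with the lowest log2 difference, -3.28. It read 2723 in *yw* and 280 in *mid*, 9.71-fold lower, and went from percentile 94.2 to 64.1 of the array. Its nearly identical duplicate *Amy-p* was not analysed here, and whether the *Amy-d* probe set also binds its transcript was not tested.

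The maltases, alpha-glucosidases that act after amylase, were not lower along with it. None of the 9 measured maltases was called lower and 2 were called higher, beside a background of 4.39% lower and 5.78% higher. The class median was 0.36. It lay between 0.09 and 0.40 under the alternatives after the shift of all genes was removed. As deposited with that shift left in, the class median lay below 0. *Mal-B1* read 21.6, under the floor, in *yw* and 431 in *mid*, at least 4.41-fold higher, and it went from percentile 13.1 to 72.8. Its log2 difference depended on the floor, with 4.32 without one and 0.91, which is no call, with the floor at the 60th percentile. *Mal-A5* read 633 in *yw* and 1333 in *mid*, 2.1-fold higher, so it lay just past the limit. *Mal-A8* read 194 and 332 (1.71-fold). *Mal-A7* read 26.6, under the floor, in *yw* and 125 in *mid*, at least 1.28-fold higher. The brighter maltases were close to level. *Mal-A1* read 4729 in *yw* and 5714 in *mid* (log2 difference 0.27), *Mal-A4* read 2955 and 3888 (0.40), and *Mal-A3* read 3299 and 3640 (0.14). *Mal-A6* read 578 and 518 (-0.16) and *Mal-A2* read 1107 and 806 (-0.46). *Mal-B2*, the direct neighbour of *Mal-B1*, was under the floor on both arrays, with 20.6 and 11.8.

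The 7 lysozymes gave no call, which says little at a background of 4.39% lower and 5.78% higher. *LysB*, *LysC*, *LysD* and *LysE*, whose probe sets all carry the mark for sequence shared within a family, cannot be told apart with confidence. *LysB* read 22284 in *yw* and 17134 in *mid* (log2 difference -0.38), *LysD* read 19866 and 13544 (-0.55), and *LysE* read 10351 and 7006 (-0.56). *LysC*, whose gene is missing from the current gene table, read 4195 and 4351 (0.05). The bright lysozymes thus read lower or level in *mid*, by about the SD between probe sets. *LysS* read 1155 and 1259 (0.12). *LysP* read 73.5, under the floor, in *yw* and 160 in *mid*, and *LysX* read 145 in *yw* and 49.4, under the floor, in *mid*, so these dim genes have bounds of at least 1.64-fold higher and at least 1.49-fold lower.

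Of the mannosidases, enzymes of the lysosomal alpha-mannosidase family, only *LManII* was above the floor. It read 448 in *yw* and 1193 in *mid*, 2.66-fold higher, at percentile 74.4 and 87.4 of the arrays. *LManI*, its direct neighbour, read 83.5 and 91.7, and *LManIII* and *LManIV* were also under the floor on both arrays.

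The lipases spread to both sides. *Lip3*, a lipase gene, read 187 in *yw* and 1306 in *mid*, 7-fold higher, and went from percentile 55.3 to 88.3. *mag* (*magro*), which encodes a gut lipase that acts on triacylglycerol and cholesterol esters, read 543 and 1720, 3.17-fold higher. *Lip1* went the other way, with 234 in *yw* and 98.1 in *mid* (2.38-fold lower), where the second value lies directly at the floor, and its log2 difference was -0.03 with the floor at the 60th percentile. *Lip4* read 334 and 440 (1.32-fold) and *Lip2* was under the floor on both arrays. *Lip3* and *Lip1* differed by 4.06 on the log2 scale. Together with *Jon66Cii*, *Ser12*, *Mal-B2*, *LManI*, *LManIII* and *LManIV*, *Lip2* made up the 7 members under the floor on both arrays, with signals from 11.8 to 91.7.

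The brightest members were mostly lower in *mid*. The medians of the members fell with each brighter range from 300 upward. The share of members lower in *mid* did not change as steadily. Among the 10 members with a mean signal of at least 10000, which were 6 Jonah proteases, 2 trypsins and 2 lysozymes, 8 were lower in *mid*, with a median log2 difference of -0.49. This count partly repeats the Jonah values given above. The probe sets of *Jon99Fii*, *LysB* and *LysD* carry the mark for shared sequence, so the 10 may not read separate genes. Of the 181 other probe sets of that brightness, 37.0% were lower, with a median of 0.08 and a central 90% from -0.41 to 0.73. Between 3000 and 10000, 6 of 10 members were lower (median -0.18, against 0.14 in 411 others). In the range from 1000 to 3000, 1 of 7 members was lower (median 0.12, against 0.12 in 1030 others). Between 300 and 1000, 5 of 12 members were lower (41.7%, against 43.0% of 2486 others), with a median of 0.64 against 0.08, and these members held 2 lower and 4 higher calls. Of the 5 members from the floor to 300, 2 were lower (median 0.59, against 0.05 in 3167 others). On the *yw* array 20 members lay in the top 5% of signals, and on the *mid* array 17 did. The highest signal of any probe set was 59900 for *yw* and 60483 for *mid*, above all members. Whether the brightest members were compressed was not tested.

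**Figure D2:**
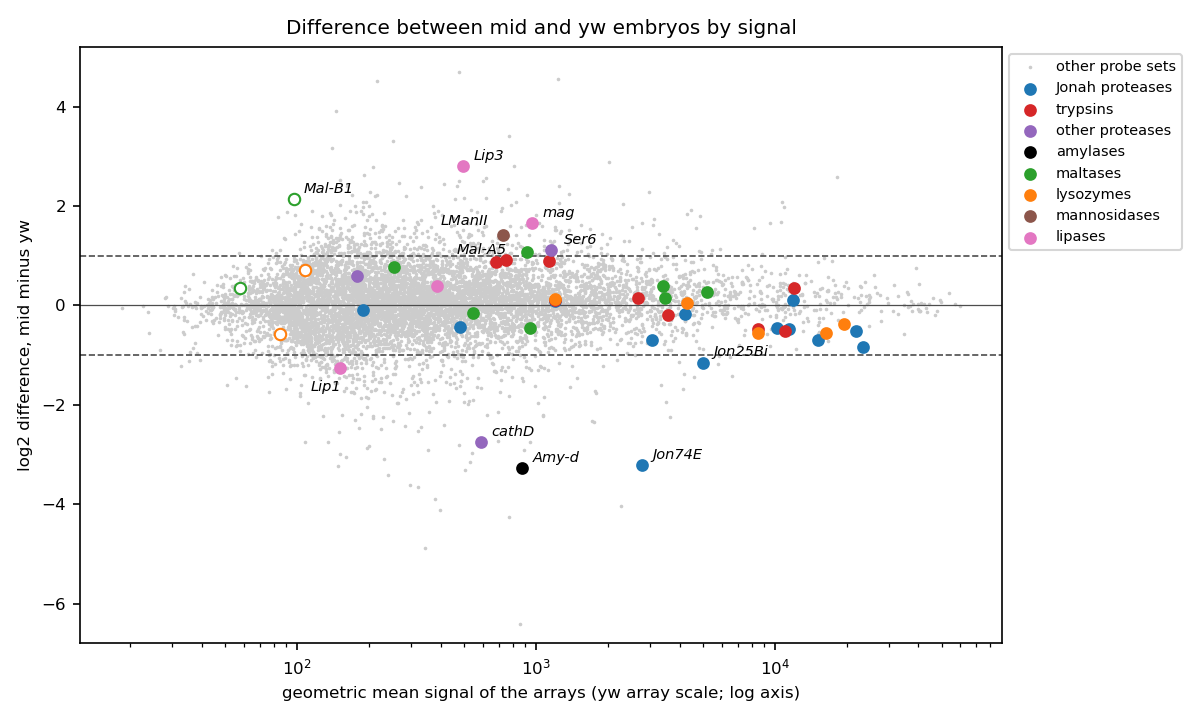
Log2 difference (*mid* minus *yw*) against the geometric mean signal of both arrays on a log axis, for the 47 members above the floor on at least 1 array (coloured by enzyme class; open where 1 array was at the floor) and all other such probe sets (grey). Dashed lines mark 2-fold, and the 11 called members are named; the brightest members lie mostly below 0, with a median of -0.49 at 10000 and above.

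Members that are direct neighbours on a chromosome differed in size and, in some clusters, in direction. The 8 genes *Mal-A1* to *Mal-A8* follow each other with no other listed gene between them, and their log2 differences ran from -0.46 for *Mal-A2* to 1.07 for *Mal-A5*. *Mal-A5* differed from its neighbour *Mal-A6* by 1.23 and from *Mal-A4* by 0.68. In the trypsin cluster, *kappaTry* stood 0.75 above its neighbour *lambdaTry*, and *thetaTry* stood 0.77 above *etaTry*. The SD of 0.53 holds for a single probe set about the mean of its gene. A gap between probe sets varies more, so that SD is no scale for these gaps. In the *Jon25B* cluster all 3 genes were lower, and *Jon25Bi* minus *Jon25Bii* came to -0.69 and *Jon25Bi* minus *Jon25Biii* to -0.46. In the *Jon65A* cluster the middle pair was lower and the outer pair level.

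**Figure D3:**
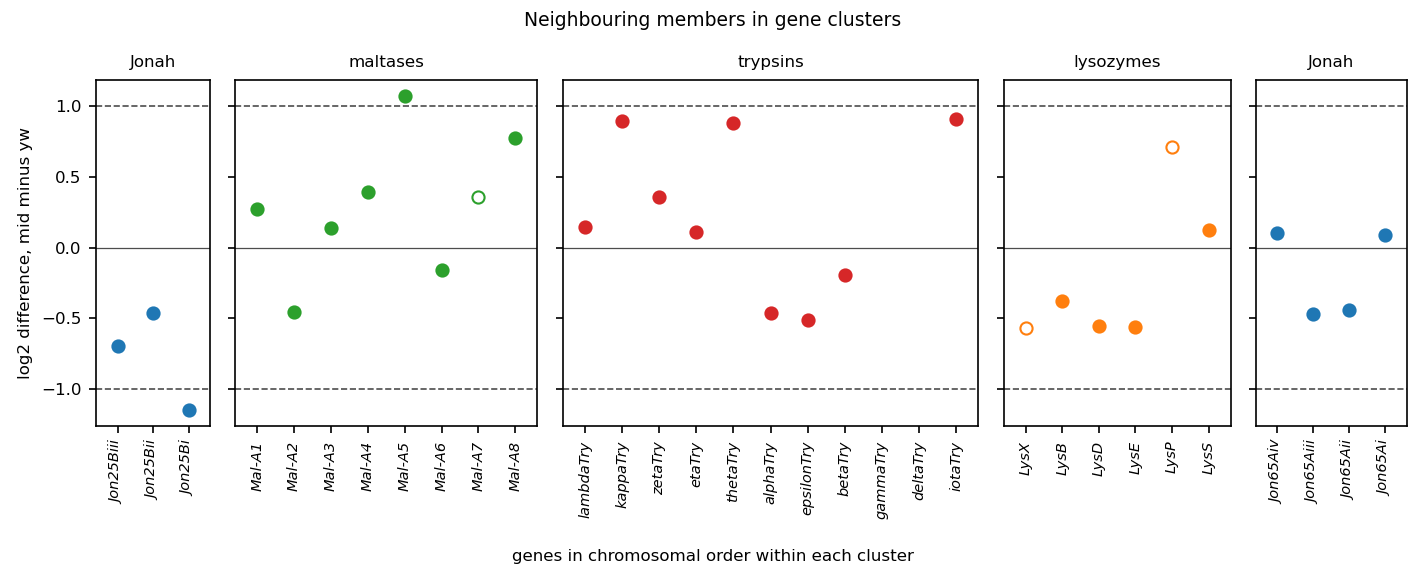
Log2 difference (*mid* minus *yw*) of neighbouring genes in the 5 clusters with at least 3 members, in chromosomal order. Open circles have 1 array at the floor, no circle is drawn for *gammaTry* and *deltaTry*, and the dashed lines mark 2-fold; the *Jon25B* genes were all lower, whereas maltases and trypsins spread on both sides of 0.

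The chromosome of a member bears on the stocks, as *mid* and the balancer CyO are on the second chromosome, and the mutant embryos were homozygous for the *mid* copy of it. Of 28 measured members on that chromosome, 4 were called lower (*Amy-d*, *cathD*, *Jon25Bi* and *Lip1*) and 3 higher (*Mal-A5*, *Mal-B1* and *LManII*). Of 17 on the third chromosome, 1 was lower (*Jon74E*) and 2 were higher (*Lip3* and *mag*), and *Ser6*, the only measured member on the X, was higher. *LysC* had no listed chromosome. Among the other measured probe sets the share called lower was 4.64% on the second and 4.17% on the third chromosome, and 6.05% and 6.08% were called higher. A sequence difference between the stocks within a probe would also change a signal, and its part in these values was not tested.

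The balance of calls depended on the scaling, and the large differences less so. Of the 11 calls 54.5% were higher, against 44.4% of 9 with quantile, loess or central mean scaling, 33.3% of 12 with the spiked controls and 5.3% of 38 with values as deposited. Over all single-symbol probe sets 56.9% of calls were higher, against 23.3% with the spiked controls and 0.28% as deposited. The median of all measured probe sets moved by -0.29 with the spiked controls, by -0.11 with the central mean and by -1.55 as deposited. *Ser6* and *Mal-A5* lost their call under each of these scalings and under quantile and loess scaling, and as deposited *Ser6*, *Mal-A5*, *LManII* and *mag* lay below 0. *Amy-d*, *Jon74E*, *cathD* and *Jon25Bi* were called lower and *Lip3* higher under every scaling and every floor tried.

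**Figure D4:**
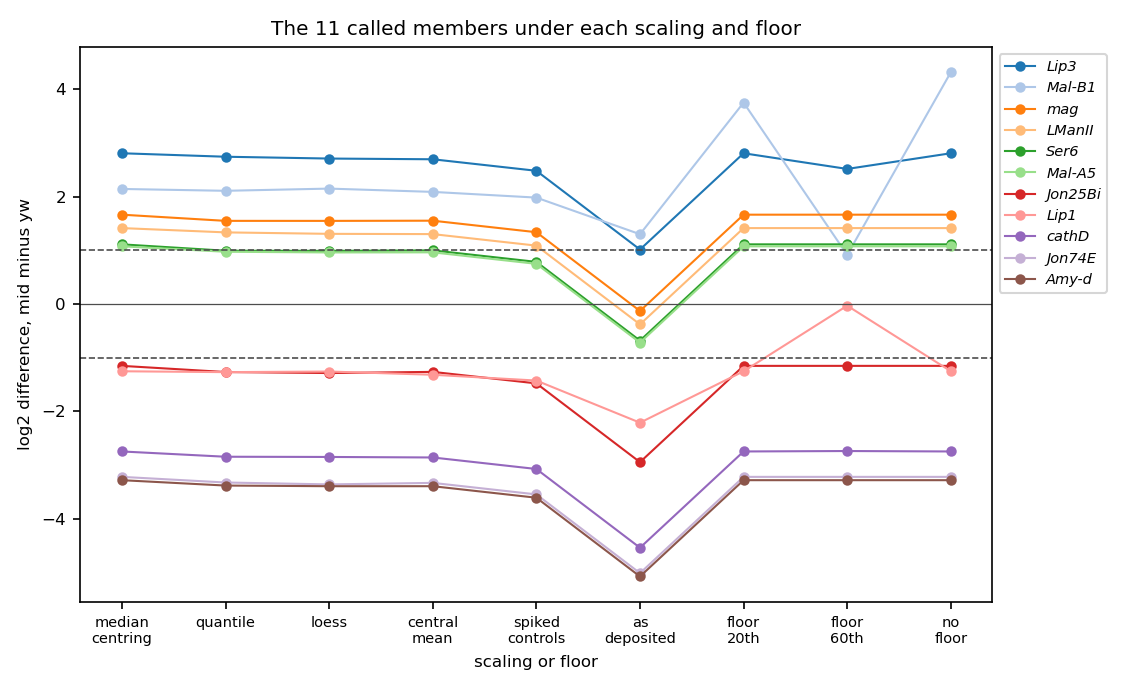
Log2 difference (*mid* minus *yw*) of the 11 called members under median centring and under each other scaling or floor, with the shift of all genes left in. Dashed lines mark 2-fold; *Amy-d*, *Jon74E* and *cathD* stay at -2.74 or lower throughout, and *Ser6* and *Mal-A5* lie just past the upper limit under median centring and below 0 as deposited.

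Other lists of gut genes held 1 call or none each, beside the background of 4.39% lower and 5.78% higher, and nothing is read from counts of this size. Of 10 measured regulators of midgut and hindgut fate, the only call was for *srp*, an endodermal and fat body GATA factor, which was higher, with 114 in *yw* and 271 in *mid* (2.37-fold). *GATAe*, the GATA factor of the differentiated midgut, read 692 and 520 (log2 difference -0.41), and *byn*, a hindgut regulator under the floor in *yw*, read 176 in *mid* (at least 1.81-fold higher). *dve*, also on this list, read 114 and 167 (0.55). Of the 10 regulators 7 lay above 0 and 3 below, with a median of 0.27. Of 9 measured genes of gut absorption and transport, 1 was lower, the amino acid transporter gene *path* (672 and 324, 2.07-fold). *mex1*, a midgut gene, read 926 and 1127, and the sterol-binding protein gene *Npc2b* read 937 and 669, both within 2-fold. Of 5 genes of the peritrophic matrix and mucins, which line the gut lumen, none was called, with *Peritrophin-A* at 542 and 1023 and *Peritrophin-15b* at 1324 and 946. Of 4 enteroendocrine genes none was called, with log2 differences from 0.13 to 0.37. Most genes with a probe set were above the floor on both arrays, *GATAe*, *mex1* and *Npc2b* among them. This held for 8 of 12 regulators, 9 of 10 transport genes, 5 of 6 peritrophic matrix and mucin genes and 3 of 5 enteroendocrine genes. Those under the floor on both were *fkh*, *hkb*, *Tret1-2*, *Muc68D* and *Mip*.

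Among markers of stage and of other tissues, those of cycling cells, cuticle and neurons stood farthest from 0. The background for the counts of calls below was 4.39% lower and 5.78% higher. Of 8 measured genes of cycling cells, 5 were called lower, with a median of -2.53. The 9 with a probe set summed to 15432 in *yw* and 1829 in *mid*, of which *CycB* gave 9266 and 562. Of 10 measured late epidermal and cuticle genes, 4 were higher and none lower, with a median of 0.84. The 11 with a probe set summed to 36781 and 66612, mostly from *TwdlM* (30263 and 50824), which was not called. Of 4 neuronal genes 3 were higher (median 1.11), and their list summed to 1214 and 2420. The fat body list had 1 of 5 genes above the floor, *apolpp* (5443 and 8047), while *Lsp2* and *Fbp1* were under the floor on both arrays. Of 6 somatic muscle genes 2 were higher (median 0.40, summed signal 106581 and 121086). Of 5 measured Malpighian tubule genes 1 was higher (median -0.19), and the 6 with a probe set summed to 4268 and 4976. Salivary gland genes were dim, with a summed signal of 320 and 509, log2 differences from 0.36 to 0.49 and no call. The part of embryo age and tissue makeup in the digestive enzyme values was not tested.

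**Figure D5:**
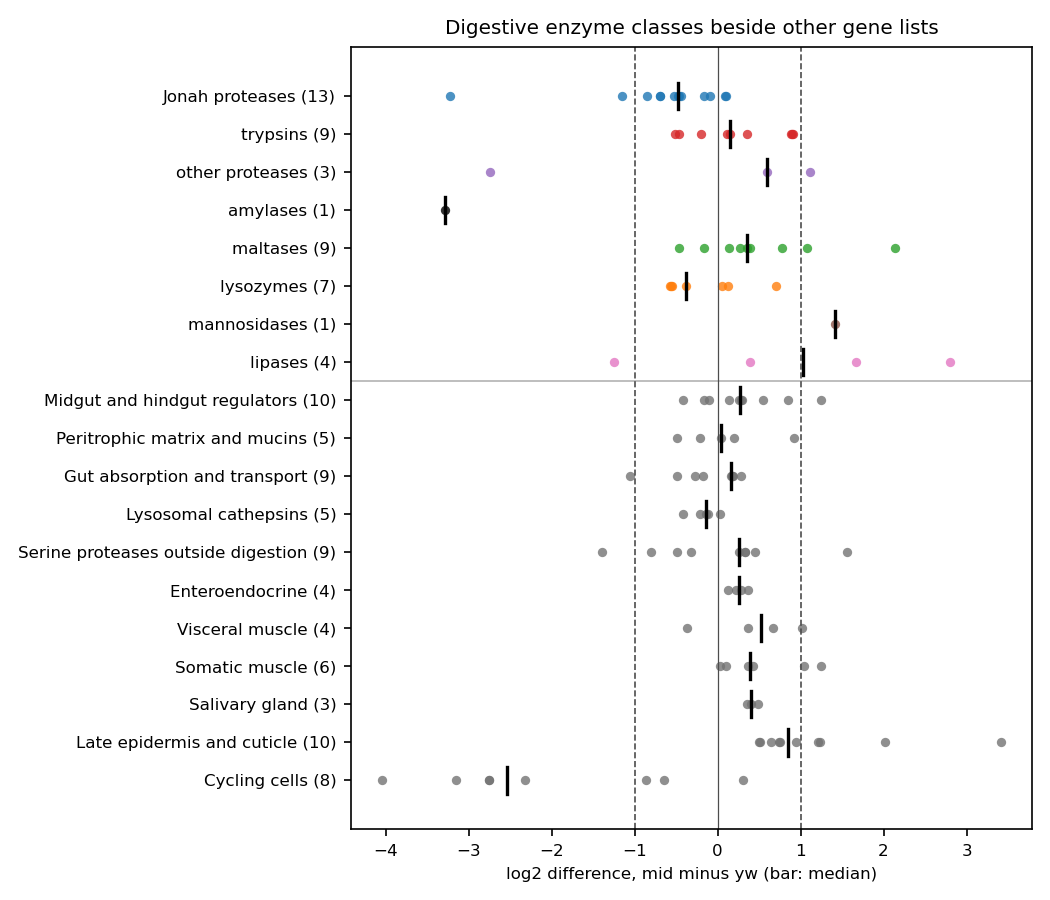
Log2 difference (*mid* minus *yw*) of each measured gene, with the number of genes in brackets and a bar at the median, for the 8 digestive enzyme classes (colours) and 11 other lists (grey). Dashed lines mark 2-fold; Jonah proteases have a median of -0.47, cycling cell genes of -2.53 and cuticle genes of 0.84.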

How the data were processed

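The deposited values are linear signal intensities, which the authors made with MAS5 according to the submitters' processing notes. Version, scaling target and detection calls of that step are not stated in the labels or the paper. There was 1 array for *yw* and 1 for *mid*, grouped by genotype as in the labels, and their number limits the precision. Arrays were centred on the median, values below the 40th percentile of both arrays were set to it, and log2 differences were called at more than 2-fold. No p-value was computed. Gene symbols came from the platform annotation and were updated by gene ID through a RefSeq gene table. Of 14010 probe sets 12444 had 1 symbol, 327 several and 1239 none. Of 58 genes with these names in the gene table, 5 had no probe set of their own. All measured members are named. The members and lists were chosen with earlier results of these data known. Lists were matched by exact symbol or a unique synonym, using the brightest probe set of a gene. For the scaling on spiked controls 9 probe sets were used (ratio 2.32 to 3.39), the central mean covered 96% of values and loess used a span of 0.3. The computation was tested on simulated data. Alternatives were other scalings, floors, fold limits and 1 value per gene. Neighbours were read from gene order alone, and no coordinates are given. Scripts ran under Python 3.11.15 with pandas 2.3.3 and numpy 2.4.6 for the values, statsmodels 0.14.6 for loess and matplotlib 3.10.9 for plots.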

Additional observations from a re-analysis of the deposited data

How the results depend on the processing

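The counts of 5 digestive enzyme probe sets called lower and 6 called higher became 36 and 2 of 49 measured members with values as deposited. These values keep the 3.46-fold gap between the array medians, and 73.8% of all measured single-symbol probe sets were called lower and 0.21% higher. With the spiked controls made equal 8 were called lower and 4 higher. At more than 1.5-fold 8 were lower and 12 higher, beside 12.7% and 16.9% of all. At more than 3-fold 3 were lower and 3 higher, beside 1.36% and 1.33%. Quantile, loess and central mean scaling each gave 5 lower and 4 higher, beside 4.93 to 5.45% lower and 4.41 to 5.03% higher of all. With the floor at the 20th percentile 7 of 53 measured members were lower and 9 higher, beside 9.61% and 9.83% of all. Without a floor it was 7 and 9 of 54, beside 13.6% and 12.2% of all. With the floor at the 60th percentile 4 and 5 of 42 were called, beside 3.09% and 4.33%. The median over measured members lay between -0.14 and 0.05 after the shift of all genes was removed. With that shift left in, it was -1.69 as deposited, -0.27 with the spiked controls and -0.12 with quantile scaling. *Lip1* and *Mal-B1* lost their call with the floor at the 60th percentile. Of 376 values of named members under the alternatives, 361 moved by less than the SD between probe sets, 15 moved by more and 0 of the called values changed sign after the shift of all genes was removed. The 15 belong to *Lip1*, *LysP*, *LysX*, *Mal-A7*, *Mal-B1* and *Ser8*, dim genes near the floor. No paired analysis was possible because each genotype has 1 array, and for the same reason no array could be left out.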

Other observations

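Of 17 serine proteases outside digestion with a probe set, 9 were above the floor on at least 1 array. Of these, 1 was called lower and 1 higher, beside the background of 4.39% lower and 5.78% higher. Nothing is read from counts of this size, here or for the muscle and hemocyte genes below. *teq*, a large protease gene, read 6764 in *yw* and 2587 in *mid* (2.61-fold lower). *Hayan*, a protease gene of wound and immune signalling, read 79.8, under the floor, in *yw* and 287 in *mid* (at least 2.94-fold higher). *snk* and *ea*, proteases of the dorsal-ventral pathway, read 488 and 348, and 541 and 647. Among muscle genes of the gut wall, *bap* read 284 and 451, *bin* 390 and 301, and *jeb* 55.0, under the floor, and 197 (at least 2.02-fold higher). Of 5 measured hemocyte genes 1 was higher, *NimC1*, which read 64.5, under the floor, in *yw* and 292 in *mid*.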
